A study of Homo sapiens with 30 samples.

Results

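The comparison described here was made in wild-type HCT116, a human colorectal carcinoma cell line, after 3 days with a DNMT1 inhibitor (DNMT1i, 10 µM) or with 0.1% DMSO as vehicle. Its members were all libraries labelled as wild-type HCT116 at 3 days, which gave 3 DNMT1i and 3 DMSO libraries, 6 of the 30 in the series, and every gene and exon bin counted in them. Each library came from a separate culture of the parental line, with no degron or knock-in allele, and poly(A)-selected RNA was sequenced. DNMT1 is the maintenance methyltransferase that copies CpG methylation onto the new DNA strand at each division. When it is blocked, methylation is diluted as cells divide, and promoters held silent by methylation can become active. In somatic and tumour cells such promoters typically belong to germ line genes, to imprinted genes and to genes silenced in the tumour.

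The libraries held between 17074791 and 21228534 counts in 60664 genes, and 15885 genes passed a filter on low counts. Levels are given in CPM, a gene's counts scaled by the library's effective total, for replicates 1, 2 and 3 in that order, and "rose" and "fell" are used for genes with an adjusted p below 0.05 in edgeR's quasi-likelihood test with Benjamini-Hochberg adjustment over all tested genes. With no limit on size, 33.8% of the tested genes rose and 27.9% fell, so that a gene list has to be read against those shares. That holds for every list below, also where the shares are not repeated. Lists can also hold genes near 0 in DMSO, which passed the filter only through DNMT1i and had to be higher. The study's thresholds for DNMT1i in its 1-day HCT116 experiment also ask for a log2 fold change beyond 0.5. At these, 23.6% were called higher and 15.6% lower by edgeR. The counts are relative within a library: with total counts as the scale in place of TMM factors, the median log2 fold change of all genes moved by 0.107 and the share of calls that were higher moved from 60.2% to 70.9%. In bulk RNA, a change in the number of cells that make a transcript and a change in RNA per cell cannot be told apart.

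The epithelial origin of the cells was visible in both groups. Of 13 colon epithelium markers, 5 lay under 1 CPM (CDX1, CDH17, VIL1, GPA33 and LGALS4), and the summed level was 4260 to 4450 CPM in DMSO and 3720 to 4390 CPM in DNMT1i. Of the 10 tested, 4 rose and 5 fell. EPCAM, an epithelial adhesion protein, measured 385, 369 and 368 CPM in DMSO and 236, 221 and 229 CPM in DNMT1i. The marker lists of cell types that should be absent were low but higher with DNMT1i. Blood markers summed to 3.3 to 5.14 CPM in DMSO and 6.98 to 8.55 CPM in DNMT1i, with 12 of 14 under 1 CPM, among them CD3E, CD14 and HBB. Stroma and endothelium markers summed to 19.6 to 22.2 CPM against 36.3 to 48.0 CPM, with 8 of 12 under 1 CPM, among them PDGFRB, DCN and CDH5, and liver and kidney markers to 6.72 to 8.42 CPM against 11 to 12.2 CPM, with 9 of 10 under 1 CPM. The part of these cell types in the results was not tested.

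The mRNA of the inhibited enzyme did not pass the test. DNMT1 measured 259, 267 and 250 CPM in DMSO and 254, 270 and 255 CPM in DNMT1i, a log2 fold change of 0.00 ± 0.07 (SE, n = 3 per group; adjusted p = 0.958 in edgeR). Of 22 tested readers, writers and erasers of DNA methylation, 8 rose and 5 fell. DNMT3A, a de novo methyltransferase, rose by 0.64 ± 0.11 (log2, SE), from 12.4, 10.3 and 13.9 CPM to 19.6, 18.7 and 18.8 CPM, whereas DNMT3B changed by -0.01 ± 0.10 (adjusted p = 0.931). UHRF1, which brings DNMT1 to hemimethylated DNA, changed by -0.15 ± 0.10 (adjusted p = 0.209) and passed the test without DNMT1i replicate 2 (-0.27) and without the 2 libraries named below. Among the TET dioxygenases, which oxidise methylcytosine, TET2 rose by 0.32 ± 0.09 and TET3 by 0.25 ± 0.09, and TET1 changed by -0.01 ± 0.13 (adjusted p = 0.941). The call of TET3 was lost without DMSO replicate 1 (0.23) or 3 (0.20), without DNMT1i replicate 3 (0.23) and without the 2 libraries named below (0.17). HELLS and CDCA7L fell, the former a chromatin remodeller needed for methylation of repeats, by 0.81 and 0.72 on the log2 scale. The methyl-CpG binding protein MBD1 rose by 0.70. CTCF, the insulator protein that the study followed, fell from 118, 118 and 109 CPM to 78.0, 78.7 and 84.0 CPM, a log2 change of -0.52 ± 0.07 (adjusted p = 4.74e-06), with no overlap between the groups.

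The first principal component of the 6 libraries held 92% of the variance and separated the treatments, and the second held 3.8% and set DMSO replicate 3 and DNMT1i replicate 2 apart from the other 4. Without those 2 libraries, 3747 genes were called higher and 2424 lower, against 3748 and 2481 with them. Genes with at least 10 counts numbered 14243 to 14378 per DMSO library and 15849 to 16694 per DNMT1i library.

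The gains and the losses differed in kind. Genes called higher had a median log2 fold change of 1.49, and 957 of them (25.5%) lay beyond 5. Genes called lower had a median of -0.75, 47 (1.9%) lay beyond a log2 change of 2, and 3 lay beyond 3. There were 488 genes with no count in any DMSO library and at least 10 counts in each DNMT1i library, and no gene showed the reverse. Genes called higher from a DMSO mean under 0.5 CPM numbered 1582. They took 0.0156% ± 0.00107 of the counts in DMSO and 0.83% ± 0.0218 in DNMT1i (SD, n = 3), and 148 of them reached a mean above 10 CPM. A gene near 0 in DMSO passed the filter only through its DNMT1i libraries, so it had to be higher, and the shares at that end of the scale describe the filter as well as the cells. Among genes with a DMSO mean of 10 to 100 CPM, where the filter plays no part, 12.3% of 6967 were called higher and 16.7% lower, and above 100 CPM 7.5% of 2060 were higher and 15% lower. Genes called lower held 30.5% ± 0.78 of the counts in DMSO and 20.4% ± 0.613 in DNMT1i.

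**Figure D1:**
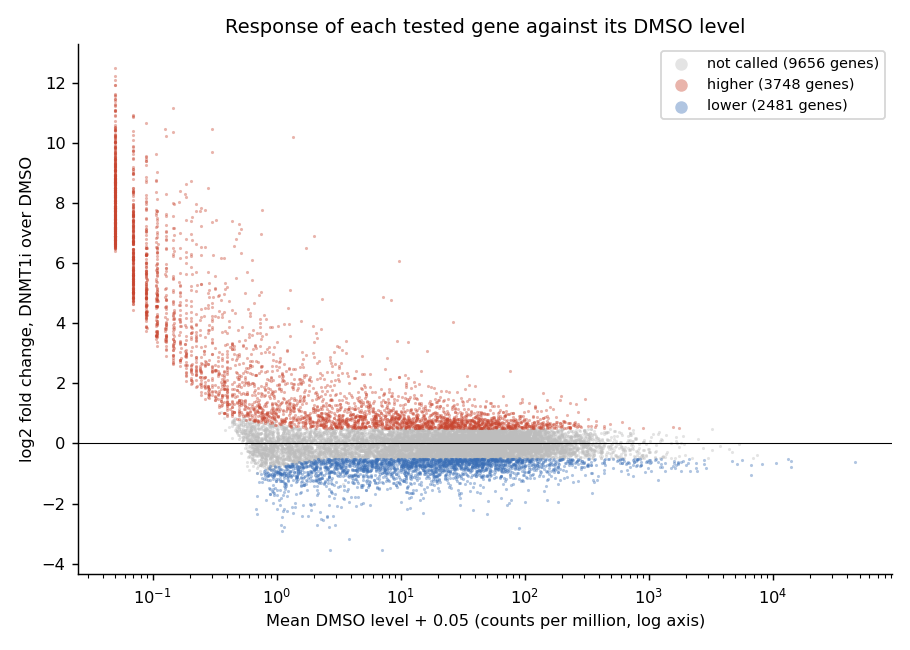
Each point is 1 of the 15885 tested genes, with its mean DMSO level plus 0.05 CPM on a log axis and its log2 fold change, coloured by call. The largest gains sit at the left edge, where genes at or near 0 in DMSO entered the test through DNMT1i, and the losses spread over the expressed range and seldom pass -2.

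By class, 23.8% of 13345 protein-coding genes were called higher and 14.4% lower, against 28.9% and 23.3% of 1314 long noncoding RNA (lncRNA) genes and 15.4% and 20.1% of 1136 pseudogenes. The X chromosome, where many cancer-testis families lie, held the highest share called higher of the 23 chromosomes listed, 34.4% of 608 genes. Among protein-coding genes the share was 35.9% of 510 on the X chromosome and 23.3% of 12815 on the autosomes, while 12.5% and 14.5% were called lower. Chromosome 21 came next with 31.5% of 149 genes. No test was made between chromosomes, and genes of a family are not independent. The shares by class and by chromosome include genes that passed the filter only through DNMT1i and had to be higher. They were not split by starting level.

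Promoters are shown for 4 genes that went from near 0 to a high level and for 1 abundant gene that fell, because they span the range of CpG content, the substrate of DNMT1. The sequences are the 250 bases before the RefSeq start in GRCh38.p14, written 5′ to 3′ on the gene's strand, with CpG sites in capitals. DAZL lies on the minus strand at chr3:16605424-16605673, UCHL1 on the plus strand at chr4:41256678-41256927, MAGEA4 on the plus strand at chrX:151912224-151912473, MAGEB1 on the plus strand at chrX:30243481-30243730 and ANXA1 on the plus strand at chr9:73151615-73151864.
DAZL: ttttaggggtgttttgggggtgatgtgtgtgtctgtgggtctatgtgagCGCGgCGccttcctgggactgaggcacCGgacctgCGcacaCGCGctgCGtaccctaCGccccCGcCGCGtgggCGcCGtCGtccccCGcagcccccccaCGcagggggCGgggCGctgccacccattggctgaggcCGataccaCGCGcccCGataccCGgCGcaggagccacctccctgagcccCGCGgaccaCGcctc
UCHL1: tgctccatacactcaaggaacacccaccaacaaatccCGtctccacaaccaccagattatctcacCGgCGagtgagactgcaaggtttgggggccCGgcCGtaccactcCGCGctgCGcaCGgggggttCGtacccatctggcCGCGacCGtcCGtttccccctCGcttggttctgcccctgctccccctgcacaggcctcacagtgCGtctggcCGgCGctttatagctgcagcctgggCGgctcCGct
MAGEA4: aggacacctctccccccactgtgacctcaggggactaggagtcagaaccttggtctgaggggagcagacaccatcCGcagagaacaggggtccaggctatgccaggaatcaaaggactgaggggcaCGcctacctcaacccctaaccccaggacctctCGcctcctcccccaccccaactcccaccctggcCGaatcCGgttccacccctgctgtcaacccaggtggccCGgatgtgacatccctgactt
MAGEB1: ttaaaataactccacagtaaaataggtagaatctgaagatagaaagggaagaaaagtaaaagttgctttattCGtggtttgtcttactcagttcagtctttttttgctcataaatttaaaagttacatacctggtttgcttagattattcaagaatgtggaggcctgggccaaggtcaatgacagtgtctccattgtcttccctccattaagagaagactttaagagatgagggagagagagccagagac
ANXA1: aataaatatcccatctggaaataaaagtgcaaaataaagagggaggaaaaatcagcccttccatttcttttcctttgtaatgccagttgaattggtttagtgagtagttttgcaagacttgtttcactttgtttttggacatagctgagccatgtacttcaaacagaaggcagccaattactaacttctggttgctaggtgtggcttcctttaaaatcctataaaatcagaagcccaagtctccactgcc

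These stretches held 28, 20, 6, 1 and 0 CpG sites. DAZL, which binds RNA in germ cells, measured 0.00, 0.228 and 0.0573 CPM in DMSO and 267, 198 and 248 CPM in DNMT1i. UCHL1, a neuronal ubiquitin hydrolase, went from 0.120, 0.0569 and 0.115 CPM to 133, 138 and 137 CPM. Both genes have a CpG-rich start. MAGEA4 and MAGEB1, X-linked cancer-testis antigens, have CpG-poor starts and also rose, by 10.46 and 7.32 on the log2 scale, against 11.17 for DAZL and 10.36 for UCHL1. MAGEA4 went from 0.299, 0.285 and 0.172 CPM to 357, 369 and 365 CPM, and MAGEB1 from 0.538, 0.285 and 0.516 CPM to 72.4, 75.1 and 68.6 CPM. ANXA1, an abundant phospholipid-binding protein, fell from 1010, 954 and 829 CPM to 497, 442 and 511 CPM.

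Of the tested genes, 11435 had a promoter entry of 300 bases (250 before to 50 after the start). The ratio of observed to expected CpG had a median of 0.834 in all of these, 0.77 in 2615 genes called higher and 0.819 in 1733 called lower. In 1000 genes called higher from a DMSO mean under 0.5 CPM it was 0.646, with a median of 17 CpG sites against 26 in all. Genes with a ratio under 0.35 were called higher in 40.9% of 1026 cases and those over 0.65 in 19.3% of 8915. That difference went with the starting level: at a DMSO mean of at least 10 CPM the shares were 14.4% of 375 and 11% of 6285, and the shares called lower were 22.1% and 14.7%. At a DMSO mean under 0.5 CPM, where genes entered through DNMT1i, the median log2 fold change was 5.02 in 256 genes with a ratio under 0.35, 6.14 in 268 between and 6.11 in 512 over 0.65. Of the motifs searched on both strands, the ETS motif CCGGAAGT stood in 8.4% of tested promoters, in 4.9% of those of genes called higher and in 7.7% of those called lower. The TATA box letters TATAAA stood in 5.8%, 8.1% and 5.9%, and in 12% of all promoters of the table. The CTCF core letters AGGGGGC stood in 20.1%, 21.8% and 16.8%. The interferon-stimulated response element letters GAAANNGAA stood in 6.2%, 6.6% and 6.1%. The E-box CACGTG, which has the same letters on both strands, stood in 10.0%, 8.6% and 11.5%. These are counts of letters, and the motifs can overlap.

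**Figure D2:**
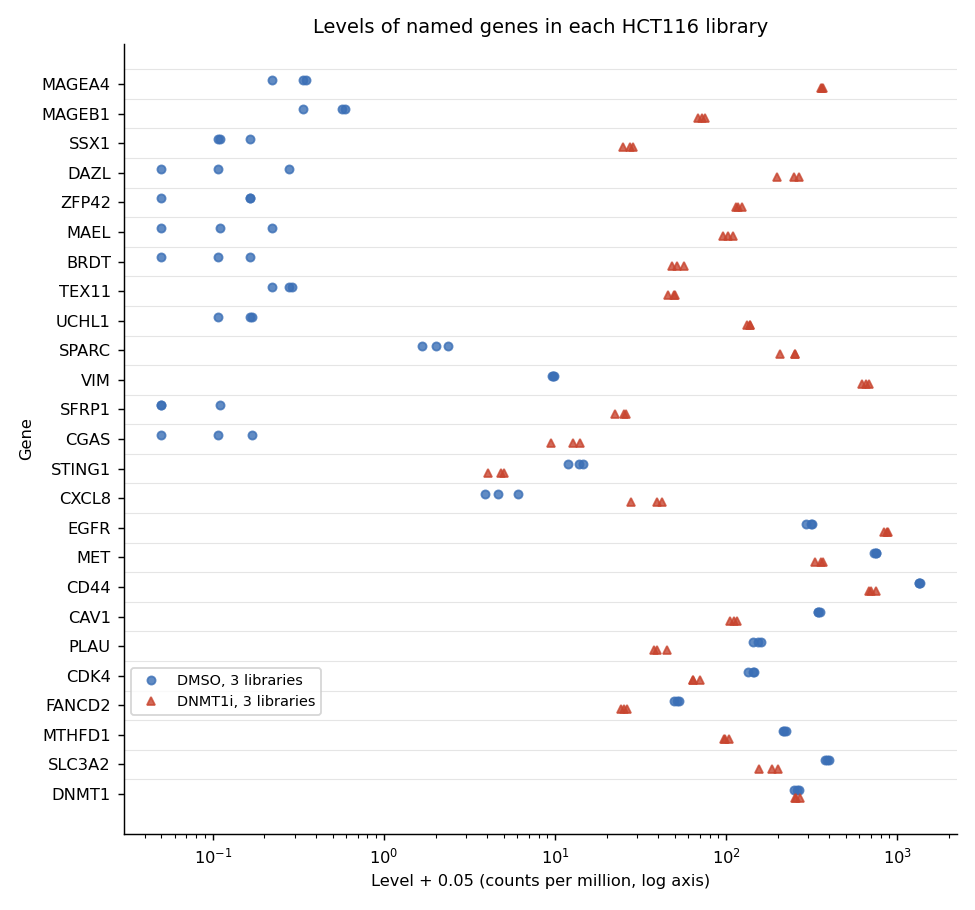
Each row is a gene and each point 1 library, with its level plus 0.05 CPM on a log axis, circles for DMSO and triangles for DNMT1i. The germ line genes and the genes known for methylation in colorectal tumours move by 1 or more orders of magnitude, CAV1, PLAU, CD44 and CDK4 move left by less, and DNMT1 stays in place.

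Among germ line genes, the X-linked cancer-testis families encode proteins normally found in testis. Of 68 members, 33 were tested and 11 had no count in any library. Of the tested members 32 rose and 1 fell, beside 33.8% and 27.9% of all genes, and the median was 7.83 on the log2 scale. It was 6.96 when 15 members at 0 in DMSO were set to a bound from 3 counts over the group. Most of these members entered the test only through DNMT1i, and close copies share reads, so that single members are uncertain. SSX1 went from 0.0598, 0.0569 and 0.115 CPM to 27.3, 28.6 and 25 CPM. CSAG3 alone went the other way, from 2.09, 1.88 and 2.18 CPM to 1.33, 1.07 and 1.24 CPM, a log2 change of -0.76 ± 0.23 that did not pass in DESeq2 or without the 2 libraries that stood apart.

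The lists of the piRNA pathway, meiosis, pluripotency and cleavage-stage genes passed the filter in 21 of 25, 22 of 38, 14 of 25 and 24 of 31 members, again in part only through DNMT1i. In the piRNA pathway, which silences transposons in germ cells, 17 tested members rose and 2 fell. MAEL rose from 0.0598, 0.171 and 0.00 CPM to 102, 95.9 and 110 CPM, and TDRD12 by 8.63 ± 0.20 (log2, SE). PIWIL2, the Argonaute protein that binds piRNAs, rose from 0.239, 0.228 and 0.286 CPM to 43.1, 44.2 and 42.6 CPM. In each of these the groups did not overlap. PLD6, a mitochondrial nuclease of the same pathway, fell from 6.82, 6.43 and 7.39 CPM to 4.79, 4.14 and 3.93 CPM. Among meiosis genes 17 of 22 tested members rose and none fell, by edgeR, at an unadjusted p below 0.05 and by DESeq2 alike. Of the 22, 3 had no DMSO count and could not fall. Others, BRDT, SYCP3 and TEX11 among them, lay near 0 and also entered only through DNMT1i. BRDT, the testis bromodomain protein, went from 0.00, 0.0569 and 0.115 CPM to 56.4, 48.3 and 51.6 CPM, a ratio of 892 with a 95% counting interval of 305 to 4330. TEX11 rose by 7.79 ± 0.18 and SYCP3, a component of the axis of meiotic chromosomes, by 7.99 ± 0.26.

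Genes of the early embryo followed. In the list of pluripotency and early germ line genes 13 of 14 tested members rose and none fell (0 at an unadjusted p below 0.05 and 0 by DESeq2). Of the 14, 3 had no DMSO count and could not fall, and others lay near 0. ZFP42, a marker of embryonic stem cells also called REX1, rose from 0.00, 0.114 and 0.115 CPM to 123, 114 and 118 CPM, and LIN28B, an inhibitor of let-7 maturation, from 0.538, 0.455 and 0.401 CPM to 40.4, 33.5 and 41.9 CPM. PRDM1 was the member that did not pass, at -0.35. Of cleavage-stage genes, many of them targets of the factor DUX4, 23 of 24 tested members rose and none fell (0 at an unadjusted p below 0.05 and 0 by DESeq2). Of the 24, 17 had no DMSO count and could not fall under any of these counts. RFPL4B and SLC34A2, with 1 DMSO count each, also passed the filter only through DNMT1i. All 24 members summed to 3.011 CPM in DMSO, so the repeated counts of 0 are no separate support. The median was 9.04, or 6.11 with 17 members at 0 in DMSO set to their bound. RFPL4B had 1 count over the 3 DMSO libraries and 56.5, 40.5 and 50.8 CPM in DNMT1i, a ratio of 2510 (95% counting interval 451 to 99400). SLC34A2, a phosphate transporter of this list, also had 1 DMSO count and reached 37.3, 36.3 and 33.3 CPM. Genes captured from retroviruses rose in 13 of 17 cases and fell in 2. Of the 17, 2 had no DMSO count and could not fall. PNMA5 went from 0.359, 0.114 and 0.286 CPM to 196, 237 and 217 CPM, ARC rose by 1.97 ± 0.12, and ERVMER34-1 fell by 0.61 on the log2 scale.

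Zinc finger genes of chromosome 19, clustered repressors of which many bind transposons, rose in 108 of 190 tested cases and fell in 10 (56.8% and 5.3%, beside 33.8% and 27.9% of all genes), with a median of 0.45. ZNF560 and ZNF880 had 1 DMSO count each and reached 14, 12.8 and 15.2 CPM and 10.1, 8.81 and 9.66 CPM. ZNF229 rose by 7.80 ± 0.33. ZNF497 fell from 1.14, 1.14 and 0.802 CPM to 0.231, 0.267 and 0.362 CPM. Of the 190, 16 had no DMSO count, passed the filter only through DNMT1i and had to be higher. ZNF560, ZNF880 and ZNF229 entered in the same way, and the shares were not split by starting level. The typical size was modest, with members at or near 0 in DMSO at the upper end.

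**Figure D3:**
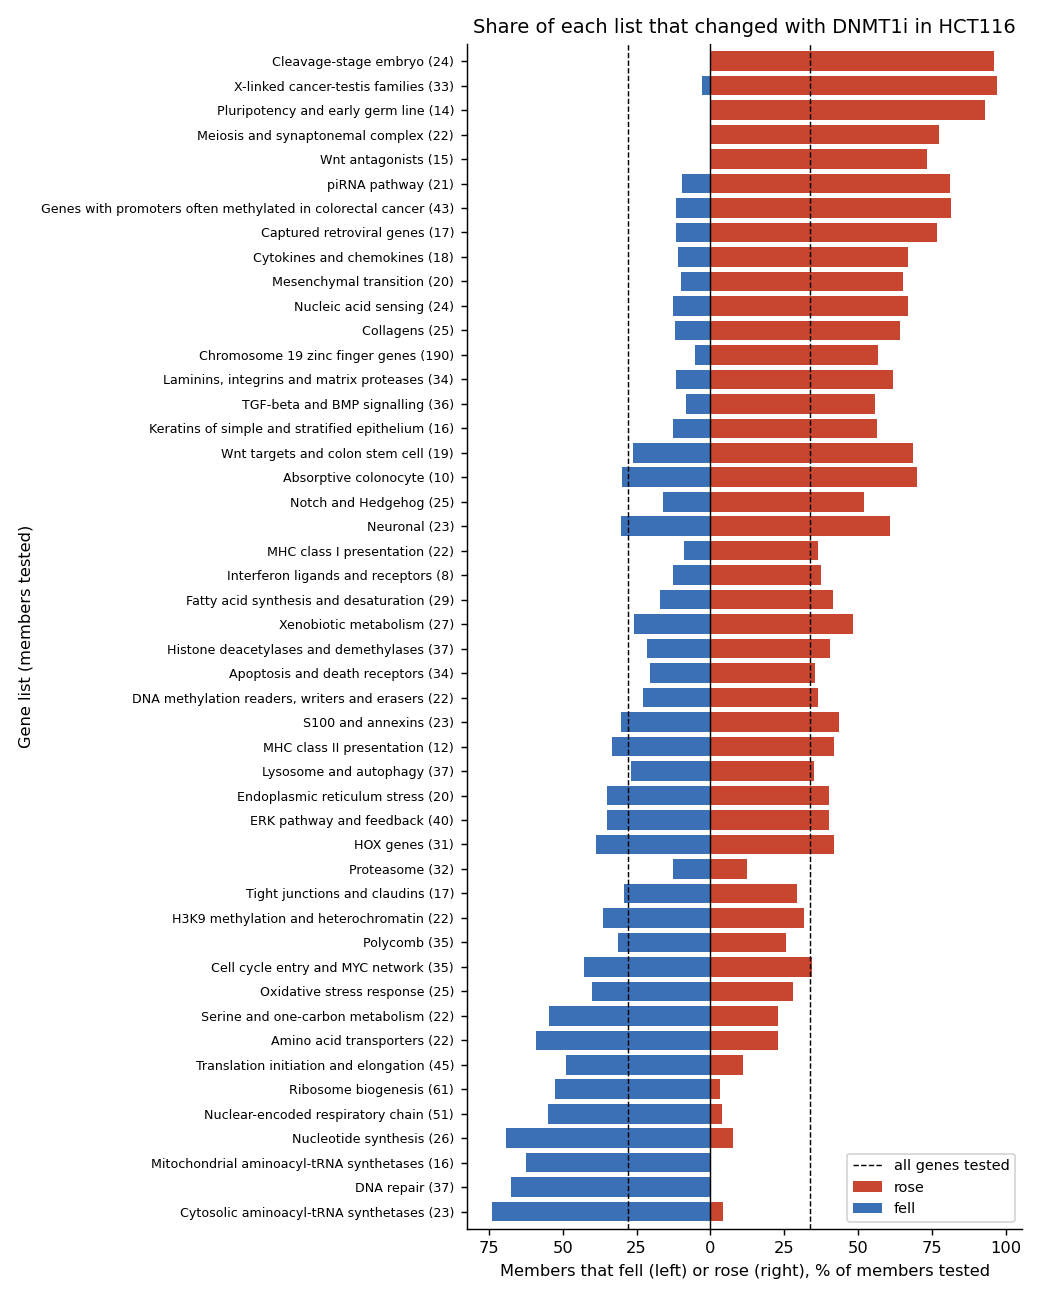
Bars give, for each list with at least 8 tested members, the percent of tested members that rose (right) or fell (left) at an adjusted p below 0.05, with the shares of all tested genes (33.8% and 27.9%) as dashed lines. Germ line and embryo lists stand at the top, and aminoacyl-tRNA synthetases, DNA repair and nucleotide synthesis at the bottom.

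Genes known for promoter methylation in colorectal tumours rose in 35 of 43 tested cases and fell in 5, with a median of 3.00. These shares were 81.4% and 11.6%, beside 33.8% and 27.9% of all genes. The list had 59 genes, and 7 of the 43 tested had no DMSO count, so that they passed the filter only through DNMT1i. Others, UCHL1 among them, lay near 0 and entered in the same way. Vimentin (VIM), an intermediate filament of mesenchymal cells, rose from 9.81, 9.56 and 9.62 CPM to 659, 684 and 624 CPM, a log2 fold change of 6.08 ± 0.09. SPARC, a matrix glycoprotein, rose from 1.61, 2.33 and 1.95 CPM to 251, 252 and 207 CPM. Neither gene overlapped between the groups, and their DMSO levels were well above the floor of the assay. SYNE1, a nuclear envelope protein, fell from 18.7, 20.2 and 17.5 CPM to 10.9, 11.3 and 12.7 CPM.

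The Wnt pathway drives the colon crypt, and inhibitors of it are often silenced in tumours. Of 22 Wnt antagonists 15 were tested, and 11 rose and none fell (0 at an unadjusted p below 0.05 and 0 by DESeq2). Those that rose were 73.3%, beside 33.8% of all genes, of which 27.9% fell. Of the 15, 2 had no DMSO count, passed the filter only through DNMT1i and could not fall, and the same holds for SFRP1. The repeated counts of 0 are thus no separate support. The decoy receptor SFRP1 had 1 DMSO count and 25.4, 25.9 and 22.3 CPM in DNMT1i. DKK4 had no DMSO count and 8.20, 8.10 and 6.15 CPM, at least 129-fold higher when 3 counts over the DMSO group are taken as the floor. NOTUM, an enzyme that inactivates Wnt proteins and is itself a Wnt target, rose from 6.76, 6.21 and 9.34 CPM to 44.1, 47.2 and 34.3 CPM. Of 19 Wnt target and stem cell genes 13 rose and 5 fell. LEF1, a transcription factor of the pathway, rose from 0.120, 0.114 and 0.115 CPM to 5.54, 4.40 and 4.29 CPM, and NKD1 by 1.70 ± 0.10. The adhesion receptor CD44 fell from 1340, 1340 and 1350 CPM to 750, 704 and 685 CPM.

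Matrix and adhesion genes moved in both directions. Collagens rose in 16 of 25 tested cases and fell in 3. Of the 25, 2 had no DMSO count and could not fall. COL14A1 rose by 8.33 ± 0.23 and COL8A2, with no DMSO count, was at least 77.9-fold higher, whereas COL12A1, the most abundant of those named, fell from 146, 147 and 148 CPM to 78.1, 77.4 and 79.4 CPM. Of laminins, integrins and matrix proteases with their inhibitors 21 of 34 rose and 4 fell. TIMP1, an inhibitor of matrix proteases, rose from 198, 181 and 199 CPM to 520, 545 and 525 CPM. The integrin subunits parted: ITGA4 went from 2 DMSO counts to 21.7, 17.0 and 18.1 CPM, and ITGA3 fell from 829, 820 and 881 CPM to 458, 539 and 514 CPM. Genes of the mesenchymal transition rose in 13 of 20 cases and fell in 2, the latter 4 without DNMT1i replicate 2. CDH2, the N-cadherin gene, had 1 DMSO count and 3.99, 3.69 and 4.55 CPM in DNMT1i, and CALD1, an actin-binding protein, fell by 0.57 on the log2 scale. The E-cadherin gene CDH1 fell from 181, 183 and 162 CPM to 107, 115 and 117 CPM.

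Of 17 tight junction genes 5 rose and 5 fell (29.4% each, near the shares of all genes). CLDN6, a claudin of embryonic epithelia, rose from 0.120, 0.114 and 0.00 CPM to 12.4, 13.7 and 13.3 CPM. CLDN4 fell from 94.6, 95.4 and 114 CPM to 39.7, 52.1 and 46.9 CPM, and the scaffold gene TJP3 from 40.8, 41.7 and 47.5 CPM to 12.6, 15.5 and 13.2 CPM. Keratins rose in 9 of 16 cases and fell in 2, the latter 1 without DNMT1i replicate 1 or 3, with KRT81 at 5.22 ± 0.23, KRT23 at 1.49 ± 0.08 and KRT80 at -1.07 ± 0.13. Of absorptive colonocyte genes 7 of 10 rose and 3 fell. Of the 10, 2 had no DMSO count and could not fall, and ANPEP lay near 0. The brush border peptidases went opposite ways: ANPEP from 2 DMSO counts to 33.1, 33.8 and 30.5 CPM, and DPP4 from 7.53, 7.0 and 8.36 CPM to 2.77, 2.89 and 2.33 CPM. In the goblet and enteroendocrine list, 4 members were tested. The transcription factor gene PAX6 rose from 4.30, 5.29 and 4.30 CPM to 11.1, 12.9 and 12.5 CPM, and ISL1 measured 0.598, 0.911 and 1.03 CPM against 1.68, 1.07 and 1.60 CPM, a rise that was lost in DESeq2 and without DMSO replicate 1 (0.55) or 2 (0.79) or DNMT1i replicate 1 (0.63) or 3 (0.66 on the log2 scale).

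Developmental genes changed in both directions. Of 31 tested HOX genes, which set position along the body axis, 13 rose and 12 fell. HOXD13 had 1 DMSO count and 2.89, 2.49 and 2.43 CPM in DNMT1i, HOXB2 rose by 3.55 ± 0.22 and HOXC10 by 1.87 ± 0.15. HOXA7 fell from 23.1, 24.5 and 20.5 CPM to 11, 10.6 and 8.89 CPM. Among neuronal genes 14 of 23 rose and 7 fell, those that fell being 4 without DMSO replicate 2 and 1 with total counts as the scale. Of the 23, 3 had no DMSO count and could not fall, and others lay near 0. The neurofilament genes NEFH and INA had 1 DMSO count each and reached 26.0, 33.3 and 27.4 CPM and 20.1, 17.2 and 18.5 CPM, and STMN3, a regulator of microtubules, fell by 0.63 on the log2 scale. Notch and Hedgehog genes rose in 13 of 25 cases and fell in 4 (2 without DNMT1i replicate 3), with NOTCH1 up from 40.0, 43.9 and 51.5 CPM to 84.7, 101 and 88.3 CPM, HES2 up by 1.94 ± 0.15, and the Notch target HES1 down by 0.48 on the log2 scale. Of TGF-beta and BMP genes 20 of 36 rose and 3 fell. The receptor BMPR2 rose by 1.11 ± 0.08, and the latent binding proteins parted, LTBP2 at 2.33 ± 0.15 and LTBP3 at -0.89 ± 0.08.

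Sensors of foreign nucleic acid rose in 16 of 24 tested cases and fell in 3. The DNA sensor CGAS had 3 DMSO counts and 13.9, 9.39 and 12.7 CPM in DNMT1i, a ratio of 204 (95% counting interval 69.4 to 989). STING1, the adaptor that acts directly after it, fell from 13.8, 11.8 and 14.5 CPM to 4.79, 4.98 and 3.98 CPM, a log2 change of -1.54 ± 0.14 (adjusted p = 6.92e-09). Sensor and adaptor thus moved in opposite directions, each with no overlap between groups. OASL, of the interferon-induced synthetase family, rose from 2.69, 2.68 and 3.27 CPM to 16, 18.6 and 19 CPM. Of 8 tested interferon ligands and receptors with their kinases, 3 rose and 1 fell. IFNAR2, a subunit of the type I receptor, rose by 0.76 ± 0.15, TYK2 by 0.58 ± 0.10 and JAK2 by 0.58 ± 0.11, and the fall of JAK1 by 0.19 on the log2 scale (adjusted p = 0.0351) was lost under every alternative scaling and tool, and without DMSO replicate 1 (-0.15) or 2 (-0.18) or DNMT1i replicate 1 (-0.18) or 3 (-0.21). The count of 3 became 7 with total counts as the scale and 5 without the 2 libraries that stood apart.

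Cytokines and chemokines rose in 12 of 18 cases and fell in 2. CXCL8 rose from 5.98, 4.61 and 3.84 CPM to 39.2, 27.6 and 41.9 CPM, CXCL1 by 3.10 ± 0.19 and CCL20 from 1 DMSO count to 2.83, 2.85 and 3.26 CPM. The cytokine LIF fell from 41.1, 46.3 and 47.2 CPM to 21.2, 28.4 and 28.9 CPM. In the MHC class I pathway, which presents peptides to T cells, 8 of 22 members rose and 2 fell (36.4% and 9.1%, beside 33.8% and 27.9% of all genes). Those that fell became 4 without the 2 libraries that stood apart. The immunoproteasome subunit PSMB8 rose from 0.478, 0.285 and 0.286 CPM to 2.6, 3.29 and 2.38 CPM and HLA-G from 0.419, 0.342 and 0.573 CPM to 2.08, 1.96 and 2.22 CPM. MR1, which presents vitamin metabolites, fell from 15.6, 14.5 and 16.2 CPM to 5.20, 5.56 and 5.53 CPM. In the class II list 5 of 12 rose and 4 fell, the latter 2 without DMSO replicate 1 or DNMT1i replicate 3. CD74, the invariant chain, rose from 0.598, 0.740 and 1.03 CPM to 8.72, 7.21 and 5.48 CPM. HLA genes share sequence and their counts are uncertain.

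Chromatin regulators showed mixed and mostly small changes. Polycomb genes rose in 9 and fell in 11 of 35 cases, with a median of -0.04 that changed sign to 0.06 with total counts as the scale. EZHIP, an inhibitor of Polycomb repressive complex 2 that is normally made in gonads, had 3 DMSO counts and 28.2, 30.3 and 27.5 CPM in DNMT1i, while JARID2, a subunit of that complex, rose by 0.93 ± 0.07 and SCMH1 fell by 0.87 on the log2 scale. In the H3K9 methylation list 7 of 22 rose and 8 fell. The methyltransferase gene SUV39H1 fell from 13.5, 11.6 and 12.7 CPM to 3.87, 4.49 and 3.46 CPM. MORC1, a germ line silencing factor, had 1 DMSO count and 4.56, 3.92 and 4.24 CPM, and MORC2 rose by 0.66 ± 0.08. Of histone deacetylases and demethylases 15 of 37 rose and 8 fell, with KDM7A at 1.26 ± 0.08, KDM5B at 0.81 ± 0.07 and SIRT3, a mitochondrial deacylase, at -1.20 ± 0.16.

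Of 23 cytosolic aminoacyl-tRNA synthetases, which load amino acids onto tRNA, 17 fell and 1 rose (73.9% and 4.3%, beside 27.9% and 33.8% of all genes), and with total counts as the scale 14 fell and 3 rose. YARS1 fell from 353, 352 and 320 CPM to 151, 173 and 189 CPM, and LARS1 by 0.62 on the log2 scale. Of 16 mitochondrial synthetases 10 fell and none rose by edgeR or DESeq2, with 1 at an unadjusted p below 0.05, and 2 rose with total counts as the scale or without the 2 libraries that stood apart. Nucleotide synthesis genes fell in 18 of 26 cases and rose in 2. IMPDH2, the rate-limiting enzyme of guanine nucleotide synthesis, fell from 512, 488 and 536 CPM to 275, 300 and 290 CPM. RRM2B, a p53-induced ribonucleotide reductase subunit, went the other way, from 127, 132 and 122 CPM to 219, 169 and 225 CPM.

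Serine and one-carbon genes fell in 12 of 22 cases and rose in 5. MTHFD1, the cytosolic folate enzyme, changed by -1.13 ± 0.07 on the log2 scale (SE), whereas CTH, of the transsulfuration pathway, rose from 19, 19 and 19.8 CPM to 60.5, 56.3 and 70.2 CPM and ALDH1L2, the mitochondrial formyl-folate enzyme, from 4.13, 3.47 and 3.78 CPM to 13, 12.7 and 20.4 CPM. Amino acid transporters fell in 13 of 22 cases and rose in 5. SLC3A2, the shared heavy chain of several exchangers, fell from 397, 386 and 377 CPM to 155, 185 and 201 CPM, and the taurine transporter SLC6A6 rose from 38.4, 44.4 and 48.5 CPM to 107, 108 and 97.0 CPM. Of 61 ribosome biogenesis genes 32 fell and 2 rose, or 23 and 5 with total counts as the scale, and those that rose numbered 4 without DNMT1i replicate 2 and 1 without DMSO replicate 1 or 3 or DNMT1i replicate 1 or 3. NAT10, an RNA acetyltransferase of the nucleolus, fell by 1.08 and NOB1, a nuclease that matures 18S rRNA, by 0.85 on the log2 scale. Translation factors fell in 22 of 45 cases (16 with total counts as the scale) and rose in 5, the latter 3 without DMSO replicate 3 or DNMT1i replicate 1 or 3. EIF4EBP1, a repressor of cap-dependent translation, changed by -1.14 ± 0.09 on the log2 scale, to 41.4, 51.7 and 48.6 CPM in DNMT1i. EIF5, which drives start codon selection, rose from 261, 224 and 215 CPM to 642, 546 and 601 CPM, against the direction of the list. Nuclear-encoded respiratory chain genes fell in 28 of 51 cases, or 21 with total counts as the scale, and rose in 2 (4 without DNMT1i replicate 2, 1 without DMSO replicate 1 or DNMT1i replicate 3, and 0 without DMSO replicate 2 or 3 or DNMT1i replicate 1), with CYC1 at -0.88 ± 0.08 and NDUFB10 at -0.74 ± 0.09.

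DNA repair genes fell in 25 of 37 cases and none rose by edgeR or DESeq2, with 1 at an unadjusted p below 0.05 and 1 with total counts as the scale. The Fanconi anaemia genes FANCD2 and FANCI fell, the former from 53.3, 49.2 and 51.5 CPM to 26.3, 24.3 and 25.3 CPM, and the mismatch repair gene PMS2 from 43.6, 41.5 and 36.7 CPM to 21.1, 19.8 and 21 CPM. The median of the list was -0.50, or -0.39 with total counts as the scale. Cell cycle entry and MYC network genes fell in 15 of 35 cases and rose in 12, an order that turned to 11 and 13 with total counts as the scale. CDK4, a kinase of the G1 phase, fell from 145, 135 and 144 CPM to 64.3, 69.8 and 63.8 CPM and E2F8 by 1.22 on the log2 scale. MXD1, an antagonist of MYC, rose from 15.7, 18.3 and 16.7 CPM to 38.2, 33.0 and 39.2 CPM.

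Growth factor receptors of the ERK pathway moved apart. EGFR rose from 313, 318 and 292 CPM to 870, 832 and 884 CPM, and FGFR3 from 13.5, 15.1 and 14.7 CPM to 42.3, 48.9 and 41.2 CPM. MET, the hepatocyte growth factor receptor, fell from 749, 747 and 735 CPM to 367, 332 and 359 CPM. Over the 40 tested genes of that list 16 rose and 14 fell, or 16 and 8 with total counts as the scale. Apoptosis genes rose in 12 of 34 cases and fell in 7, the latter 11 without the 2 libraries that stood apart. The inhibitor BIRC3 rose from 8.79, 9.62 and 10.3 CPM to 48.2, 35.1 and 49.6 CPM and XAF1 from 1 DMSO count to 5.43, 5.56 and 5.43 CPM, whereas survivin (BIRC5) fell by 0.72 on the log2 scale.

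Of 23 tested S100 and annexin genes, which bind calcium, 10 rose and 7 fell. In metabolism, fatty acid genes rose in 12 of 29 cases and fell in 5. ELOVL4 and ELOVL2, elongases of very long fatty acids, had no DMSO count and were at least 311-fold and 96.8-fold higher, and ELOVL6 fell from 69.0, 66.3 and 60.4 CPM to 39.0, 37.2 and 38.0 CPM. Xenobiotic metabolism genes rose in 13 of 27 cases and fell in 7, and the drug pumps parted, ABCB1 up from 3.23, 2.96 and 2.41 CPM to 12.2, 9.70 and 11.6 CPM and ABCC2 down from 92.8, 90.4 and 99 CPM to 39.2, 40.4 and 40.3 CPM. The oxidative stress list had 7 of 25 higher (4 without DNMT1i replicate 3) and 10 lower, with GPX3 from 3 DMSO counts to 6.01, 7.92 and 6.10 CPM and GPX8 at -0.88 ± 0.09. Metallothioneins, which bind metals and are close copies, rose in 3 of 7 cases and fell in 3. MT1E, the most abundant named, fell from 320, 294 and 286 CPM to 175, 169 and 173 CPM, and MT1L had no DMSO count and was at least 72.0-fold higher. In lysosome and autophagy genes, 13 of 37 higher and 10 lower, MAP1LC3A, the autophagosome protein LC3A, had no DMSO count and 9.13, 12.1 and 9.04 CPM in DNMT1i, at least 176-fold higher. Of 20 endoplasmic reticulum stress genes, 8 were higher (5 without DMSO replicate 2) and 7 lower, and the chaperone HSPA5 measured 2380, 2070 and 1870 CPM against 1400, 1420 and 1630 CPM. Of 32 proteasome genes 4 rose and 4 fell, below the shares of all genes on either side. Those that fell became 10 without the 2 libraries that stood apart, 7 without DNMT1i replicate 2, 2 without DMSO replicate 3 and 1 without DMSO replicate 1 or DNMT1i replicate 3. Those that rose became 8 with total counts as the scale and 2 without DMSO replicate 2. PSME4, a proteasome activator, rose from 129, 130 and 120 CPM to 286, 241 and 270 CPM.

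Per length of exon, the largest gains in protein-coding genes were not all germ line genes. On the scale of CPM per kilobase of exon (RPKM), S100A11 gained most, from a mean of 398 to 1000, followed by TKTL1, from 0.367 to 438. S100A10, the partner of annexin A2, went from 139 to 446 RPKM, AREG, an EGFR ligand, from 545 to 773 RPKM, and LGALS1, a galectin, from 303 to 527 RPKM. MSX1, a homeobox gene, went from 35.7 to 189 RPKM. The histone genes H1-2 and H2BC12 went from 15.5 to 160 RPKM and from 29.5 to 156 RPKM, and in libraries they measured 10.6, 11.7 and 11.6 against 118, 121 and 112 CPM, and 12.4, 15.1 and 16.3 against 78.3, 84.2 and 69.2 CPM. As the RNA was poly(A)-selected, these values cover polyadenylated histone transcripts only. The largest losses lay in ribosomal proteins (RPS12, RPS6, RPS18, RPL3, RPL8 and RPL10A among them), in FTH1, the ferritin heavy chain, from 1230 to 654 RPKM, in the scaffold gene AKAP12, from 766 to 372 RPKM, in the elongation factor EEF2, from 1160 to 772 RPKM, and in ERRFI1, an inhibitor of EGFR, from 517 to 272 RPKM. Both EGFR and its ligand AREG were thus higher and its inhibitor ERRFI1 lower, each with no overlap between groups.

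Among lncRNA genes at a mean of at least 2 CPM (log2 of 1), LINC00958 rose from 0.299, 0.512 and 0.401 CPM to 40.2, 39.2 and 39.0 CPM, LINC00624 by 6.28 ± 0.22, AFAP1-AS1 by 7.23 ± 0.20, PROSER2-AS1 by 7.74 ± 0.23, TM4SF18-AS1 by 7.0 ± 0.25 and BOK-AS1 by 6.66 ± 0.25. CASC19 fell from 30.1, 33.5 and 25.9 CPM to 6.12, 7.65 and 7.54 CPM, EPB41L4A-AS1 by 1.64, IQCH-AS1 by 1.63 and SNHG1 by 0.81 on the log2 scale. No source used here gives the strand setting of the counting, and reads of an antisense gene and of the gene it overlaps cannot be told apart.

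The response differed from that of K562, a leukaemia line treated with the same dose for the same time (3 libraries per group), in 13.6% of 17237 genes with a larger and 11% with a smaller log2 fold change in HCT116, by the interaction term of edgeR. With RLE scaling 62.3% of these calls were larger in HCT116 and with DESeq2 65.9%, against 55.2%. The genes with the smallest p for a larger response had a lower level in HCT116 with DMSO than in K562 with DMSO. VIM measured a mean of 2490 CPM in K562 with DMSO and 2220 CPM with DNMT1i, a log2 change of -0.16, and the difference between the lines was 6.24 ± 0.12 (adjusted p = 2.43e-17). The same arrangement held for MAGEA1 (18.1 and 16.5 CPM in K562), MAGEA12 (37.4 and 31.6 CPM), MAGEB1 (30.8 and 34.4 CPM), HDGFL3 (77.9 and 76.3 CPM), LINC00958 (107 and 83.5 CPM) and AFAP1-AS1 (79.9 and 70.0 CPM). In HCT116, MAGEA1 went from 2 DMSO counts to 36.6, 33.5 and 35.1 CPM and HDGFL3, a growth factor-related protein, from 0.359, 0.171 and 0.0573 CPM to 49.6, 41.3 and 47.2 CPM. The mean HCT116 level with DNMT1i stayed below the K562 level without it for VIM, HDGFL3, LINC00958 and AFAP1-AS1, and passed it for MAGEA1, MAGEA12 and MAGEB1.

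Among the genes with the smallest p for a smaller response, those named here other than FADS2 had a higher DMSO level in HCT116 than in K562. SPINT2, a protease inhibitor, measured 126, 126 and 132 CPM against 126, 141 and 132 CPM in HCT116 and went from 0.748 to 29.0 CPM in K562. KCNK6, MAP3K13 and UBE2C went from 0.124 to 14.7, from 0.304 to 17.6 and from 0.262 to 28.4 CPM in K562, and changed by 0.15 ± 0.10, -0.12 ± 0.09 and -0.32 ± 0.07 on the log2 scale in HCT116, where each was expressed in DMSO. CDH1 fell in HCT116 and went from 0.297 to 7.29 CPM in K562. FADS2, a fatty acid desaturase expressed in both lines, fell by 0.65 in HCT116 and rose by 2.62 on the log2 scale in K562. Of the 664 genes called higher in K562 and tested in both lines 396 (59.6%) were called higher in HCT116, beside 17.5% of all genes tested in both, and these are 18.1% of the 2188 called there. Genes near 0 in HCT116 with DMSO passed the filter only through DNMT1i and had to be higher. The shares were not split by starting level, so the part of such genes in the overlap was not tested. Of 153 called lower in K562 60 (39.2%) were called lower in HCT116, beside 15.6% of all genes tested in both, and these are 3.1% of its 1952.

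**Figure D4:**
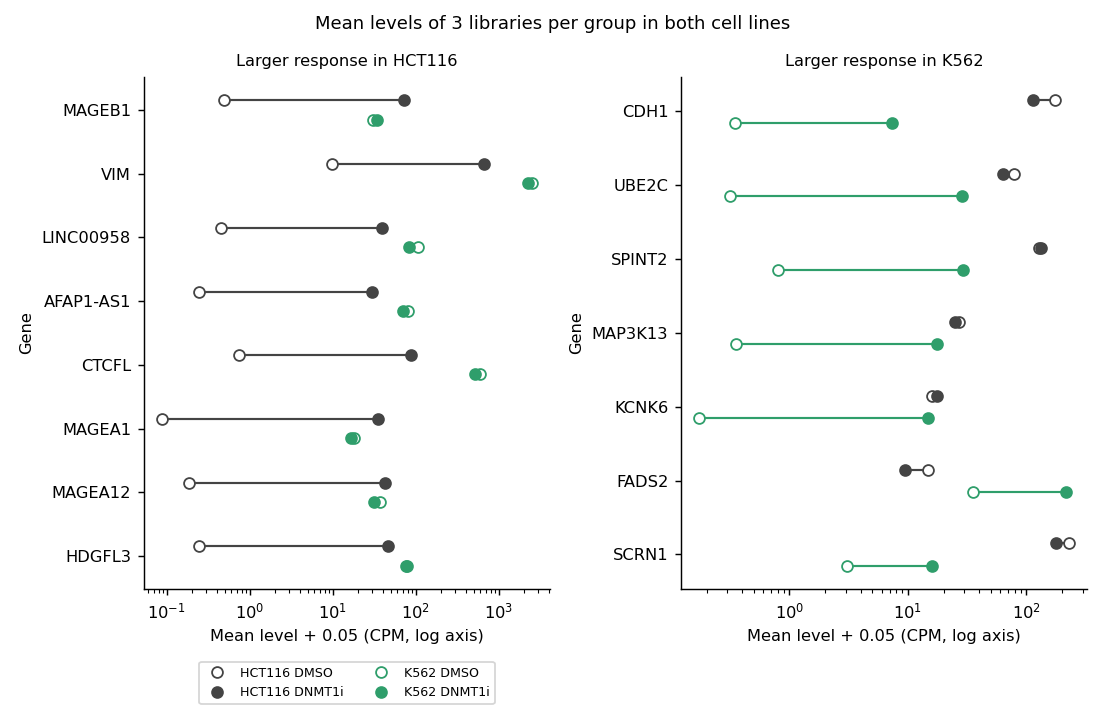
Rows are 8 genes with a larger response in HCT116 (left) and 7 with a smaller one (right), among those with the smallest p for a difference in response between HCT116 (grey) and K562 (green), with open circles for the DMSO mean and filled circles for the DNMT1i mean of 3 libraries, plus 0.05 CPM on a log axis. In the left panel HCT116 starts below K562, VIM from 9.67 CPM and the others from under 1 CPM, and ends above it for MAGEB1, MAGEA1 and MAGEA12. In the right panel K562 moves further than HCT116.

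A second HCT116 dataset held a HaloTag-CTCF knock-in line (HT-CTCF) treated with DNMT1i for 1 day after vehicle, without the CTCF degrader HaloPROTAC3 (3 libraries per group). Line, time and depth all differ from the wild-type 3-day experiment, and their parts cannot be told apart. The study gives no read length for the wild-type RNA libraries, so a difference in read length may add to these. The 3-day log2 fold change was larger in 10.7% and smaller in 11.6% of 15782 genes by the interaction term, and with DESeq2 62.4% of the calls were larger against 48.1%. Of 155 genes called higher at 1 day, 101 (65.2%) were called higher at 3 days, beside 14.3% of all genes tested in both, and these are 5.8% of the 1738 called there. Here too genes near 0 in DMSO passed the filter only through DNMT1i, and the shares were not split by starting level. The median of the 155 log2 fold change was 0.83 at 1 day and 0.94 at 3 days. Over all 12128 genes tested in both, the median absolute log2 fold change was 0.13 at 1 day and 0.33 at 3 days. At 1 day 13 genes were called lower, and 6 of them were also lower at 3 days, beside 17.1% of all genes tested in both.

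The genes with the smallest p for a smaller 3-day value were led by NR2F1. This nuclear receptor measured 68.2, 75.2 and 72.0 CPM against 18.5, 17.1 and 17.0 CPM at 3 days, and means of 76.4 and 79.5 CPM at 1 day, a difference in log2 fold change of -2.09 ± 0.12 (adjusted p = 2.28e-13). PLAU, the urokinase gene, fell from 159, 143 and 154 CPM to 37.8, 39.5 and 45.2 CPM at 3 days, against means of 31.2 and 35.9 CPM at 1 day. CAV1, the caveolar coat protein, fell from 344, 342 and 354 CPM to 111, 105 and 116 CPM, against means of 586 and 458 CPM at 1 day. VGF and WNT16 fell by 2.0 and 1.59 at 3 days and changed by 0.64 and 0.16 on the log2 scale at 1 day. In the other direction, DHRS2, a short-chain dehydrogenase, rose from 9.63, 8.14 and 7.05 CPM to 218, 240 and 229 CPM at 3 days and from 16 to 59.7 CPM at 1 day. SUSD2 rose from 26.3, 24.7 and 28.7 CPM to 417, 488 and 400 CPM and from 15.9 to 39.9 CPM, and TRIML2 from 1.67, 2.51 and 2.58 CPM to 61.7, 66.6 and 64.2 CPM and from 7.17 to 18.3 CPM. ASAP2, MSX1 and H1-2 rose by 1.59, 2.41 and 3.37 at 3 days and changed by 0.01, 0.31 and -0.11 on the log2 scale at 1 day.

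Usage of parts of genes was compared in 196133 exon bins of 10587 genes, each bin being a stretch of exon tested against the rest of its gene. Higher relative usage was called in 0.606% of bins and lower usage in 0.261%, in 1022 genes (9.7%), of which 694 had 1 called bin. In 6 of the 10 genes named by rule, the bin overlapped only first exons of GENCODE 44 transcripts, and in each of the 6 its share of the gene's counts rose. In PARP16, which encodes a mono-ADP-ribosyltransferase, the bin at chr15:65300197-65300618, where 1 of 6 transcripts starts, held 0.119% ± 0.207 of the counts in DMSO and 11.9% ± 0.915 in DNMT1i (SD, n = 3). In PCDH7, a protocadherin, the bin at chr4:30723480-30724440 held 0.362% ± 0.0997 and 18.3% ± 1.11, and the last counted bins of the gene were used less, while the gene as a whole changed by -0.26. The bins named in RBBP6 (chr16:24537712-24537933), MYO1C (chr17:1492413-1492686) and TECR (chr19:14564698-14564785) held 0.0422%, 0.0101% and 0.0148% of counts in DMSO and 1.89%, 0.428% and 0.768% in DNMT1i. TECR, an enzyme of fatty acid elongation, changed by -0.18 as a gene (adjusted p = 0.105), so that the bin moved where the gene did not pass. FDFT1, the squalene synthase gene, had its first bin at 0.0274% and 3.02%.

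The remaining 4 bins lay elsewhere. In RUSC1 the bin at chr1:155321688-155323011 had no count in DMSO and 67, 69 and 64 counts in DNMT1i, 5.11% ± 0.793 of the gene, in an internal exon of 4 of 17 transcripts. In NGEF, a guanine nucleotide exchange factor, 6 bins were used more, the named one at chr2:232920284-232920585 with 0.129% ± 0.224 and 7.08% ± 0.595. In PTPRS, a receptor phosphatase, the last bin at chr19:5158495-5159104 held 0.0726% ± 0.0478 and 5.00% ± 0.748. In DHRSX the gene as a whole rose by 3.40 on the log2 scale and the bin at chrX:2408745-2408813 fell from 8.76% ± 0.75 of its counts to 0.39% ± 0.125, with 27, 25 and 30 counts in DMSO and 9, 24 and 11 counts in DNMT1i. Each of the 10 bins had the same direction and an adjusted p below 0.05 with each library left out. The bins were picked for their smallest p in these same libraries, so that result is no separate support.

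Over all called bins, those that overlapped a last exon held 70.9% of the bins with higher usage and 47.1% of those with lower usage, against 33.7% of bins tested, and bins in first exons only held 12.9% and 23.2% against 12%. The share of all bin counts in last exons was 39.5%, 38.7% and 38.5% in the DMSO libraries and 41.7%, 39.1% and 41.0% in the DNMT1i libraries, with DNMT1i replicate 2 nearest to DMSO, and the part of such a shift in coverage was not tested. The number of bins called depended on single libraries. Without DNMT1i replicate 2 there were 2267 with higher usage, and without DNMT1i replicate 1 or 3, or DMSO replicate 1 or 3, there were 459, 521, 605 and 514, against 1188 with all 6. Last exons held 49.9% of those with higher usage without DNMT1i replicate 1 and 74.9% without DNMT1i replicate 2.

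**Figure D5:**
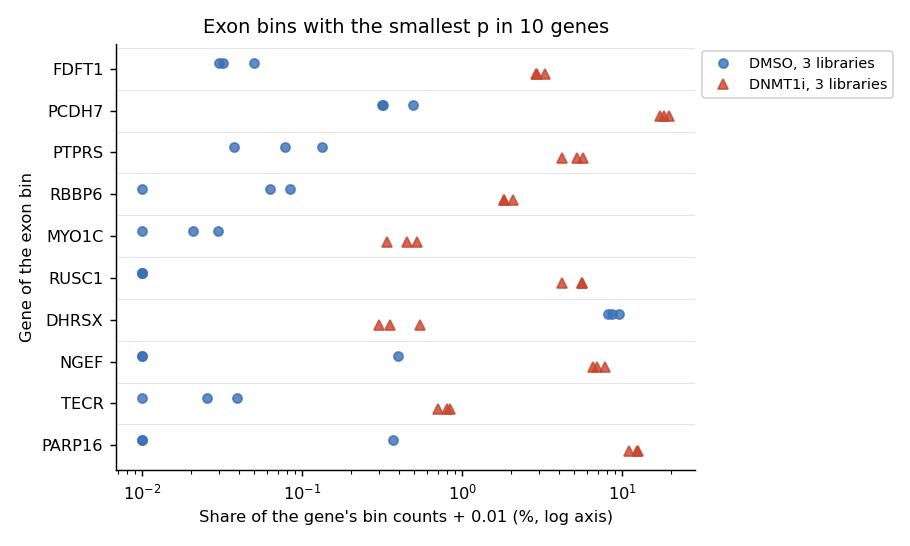
Each row is the exon bin with the smallest p in 1 of 10 genes and each point 1 library, with the bin's share of its gene's bin counts plus 0.01 on a log axis in percent. In 9 rows the DNMT1i triangles lie to the right of the DMSO circles, and in DHRSX they lie to the left.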

How the data were processed

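Raw read counts per gene and per exon bin were used as deposited. The authors extracted and deduplicated molecular identifiers (UMI-tools 1.1.1), aligned the reads to the hg38 build (STAR 2.6.0) and counted them over Ensembl genes with HTSeq. The versions are those of the submitters' processing notes. The deposited tables of the authors' own comparisons hold fold changes and p-values and were not used, except for the bin coordinates, and 18 columns of per-sample values in them were left out. Rows that name no gene (18.7% to 23.6% of counts) were removed.

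Genes were tested in edgeR 4.0.16 (R 4.3.3) by the quasi-likelihood F test with TMM factors and filterByExpr, and bins with diffSpliceDGE, since the program the authors used for exon usage was not installed, in genes with a mean of at least 50 counts per group. Calls needed an adjusted p below 0.05 (Benjamini-Hochberg) and a log2 change beyond 0.5. Interactions tested HCT116 against K562 and against HT-CTCF. Intervals are exact, at 95%, and like the floor of 3 counts cover counting error only. Fits were checked on simulated data in which few genes or bins changed, as many up as down. That check does not cover the choice of scaling where many genes change. DESeq2 1.42.0, limma 3.58.1, other scalings, no filter, each library left out and a replicate block were the alternatives.

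Named genes were the 3 members of each list with the smallest p and the first against its majority, the 12 largest gains and losses per length, 8 lncRNAs that were higher and 6 that were lower, 1 bin in each of 10 genes, up to 8 genes per direction of each interaction, and DNMT1, DNMT3A, DNMT3B, UHRF1, the TET genes and CTCF. PRDM1 and the marker genes under 1 CPM were named after their values were seen. Members and lists were chosen with earlier results of these data known. Libraries were separate cultures, and p-values measure the spread between these. Some items that the rule named are not reported here.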

Additional observations from a re-analysis of the deposited data

Results flagged for a closer look

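The response to DNMT1i differed between cell lines by the interaction term of edgeR's quasi-likelihood test: 2342 genes had a larger and 1897 a smaller log2 fold change in HCT116 than in K562. Among the named genes the difference in log2 fold change, HCT116 minus K562, was positive for MAGEB1 (7.15), VIM (6.24), LINC00958 (6.93), AFAP1-AS1 (7.41), CTCFL (7.12), MAGEA1 (9.72), MAGEA12 (8.46) and HDGFL3 (7.87). It was negative for CDH1 (-5.22), UBE2C (-6.96), SPINT2 (-5.26), MAP3K13 (-5.98), KCNK6 (-6.61), FADS2 (-3.28) and SCRN1 (-2.79).

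The response also differed between wild-type HCT116 at 3 days and HT-CTCF at 1 day, with 1696 genes larger and 1830 smaller. The difference, 3 days minus 1 day, was positive for EIF5 (1.55), S100A10 (1.63), MSX1 (2.1), H1-2 (3.49), DHRS2 (2.88), SUSD2 (2.71), TRIML2 (3.47) and ASAP2 (1.58). It was negative for AARS1 (-1.27), AKAP12 (-1.38), NR2F1 (-2.09), VGF (-2.63), WNT16 (-1.75), PLAU (-2.09), ADGRF1 (-2.65) and CAV1 (-1.29). Line, time, depth and any difference in read length cannot be told apart in this comparison.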

How the results depend on the processing

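In HCT116, the counts of 3748 higher and 2481 lower genes stayed within 1.5 times under every alternative: 3804 and 2395 with RLE scaling, 4331 and 1779 with total counts, 4529 and 2078 in DESeq2, and 3756 to 3946 and 2397 to 2560 with 1 library left out. With no low count filter there were 5296 and 2745 of 35211 genes. The 2342 larger and 1897 smaller responses against K562 ranged from 2162 to 2358 and from 1686 to 1986 with 1 library left out, and the 1696 and 1830 against HT-CTCF from 1402 to 1781 and from 1610 to 1989. Exon bins were the exception. Those with higher usage ranged from 459 to 2267 and those with lower usage from 275 to 658, and a minimum count of 30 gave 341 with lower usage, with 139401 bins tested in place of 196133. The cause was not tested.

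Replicate numbers did not pair the samples: deviations of same-numbered libraries correlated at 0.156, -0.252 and -0.274. With the replicate number as a block, 3708 genes were higher and 2456 lower, 919 bins had higher and 440 lower usage, 2120 and 1758 genes differed from K562 and 1565 and 1714 from HT-CTCF. Leaving out DMSO replicate 3 and DNMT1i replicate 2, chosen after seeing the data, gave 3747 and 2424 genes and 1411 and 478 bins. With total counts as the scale the medians of the Polycomb, proteasome, cell cycle and ERK lists changed sign. Against HT-CTCF, DESeq2 gave 2327 larger and 1404 smaller responses. Folds from a group with no count are bounds only.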
